A study of Mus musculus with 12 samples.

Results

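The miRNA miR-138 is represented in the deposited table by 3 mature strands, taken by name from 1908 named miRNAs. These are mmu-miR-138-5p, which both of its hairpins give rise to, and mmu-miR-138-1-3p and mmu-miR-138-2-3p, each of which comes from 1 hairpin. The prefix, which stands for mouse, is left out below. The counts come from hippocampi of 12 male mice on a C57BL/6 background, all aged 3 months. Of these, 6 were GLD2-/- (GLD2KO) and 6 were wild type (WT), and both groups were littermates from matings of heterozygotes. Gld2 is an enzyme that extends the 3′ ends of RNAs, including miRNAs, with adenosine, and the study asks what part it plays in the untemplated addition of nucleotides to miRNAs. The table holds 1 count per miRNA and library, so the comparison made here is of abundance between the genotypes. The 3′ ends themselves and the mRNA of the deleted gene were not analysed here, so the genotypes rest on the labels.

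A miRNA hairpin is cut by Drosha and Dicer into a short duplex, of which 1 strand is loaded into an Argonaute protein and guides it to matching mRNAs, while the other is mostly degraded. miR-138-5p is the loaded strand of miR-138 and is enriched in brain. In rat hippocampal neurons it is found near synapses and limits the size of dendritic spines by repressing Lypla1, which encodes the depalmitoylating enzyme APT1.

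The hairpin sequences, from RefSeq on build GRCm38.p6, are shown because they decide which reads can be assigned to which gene. Mir138-1 lies at chr9:122682876-122682974 on the plus strand, inside an exon of the pseudogene transcript Gm47135. The nearest protein-coding genes are Abhd5, 301352 bases before it, and Topaz1, 64372 bases after it. Mir138-2 lies at chr8:94324311-94324381 on the plus strand, inside an exon of the long noncoding RNA C78859. It stands between Nup93, 7084 bases before it, and Slc12a3, 4820 bases after it. The mature strands are in capitals, the 5p strand first.
Mir138-1: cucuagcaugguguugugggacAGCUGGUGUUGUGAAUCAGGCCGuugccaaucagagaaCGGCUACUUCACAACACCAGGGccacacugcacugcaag
Mir138-2: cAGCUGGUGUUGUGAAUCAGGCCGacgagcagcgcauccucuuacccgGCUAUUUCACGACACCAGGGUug

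The mature strands follow with the seed, bases 2 to 8, in capitals, since the seed largely sets which mRNAs a miRNA pairs with.
miR-138-5p: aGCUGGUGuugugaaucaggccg
miR-138-1-3p: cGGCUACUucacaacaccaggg
miR-138-2-3p: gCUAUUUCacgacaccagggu
The 5p strand of 23 bases is identical in both hairpins, so its counts cannot be divided between them. The 3p strands, of 22 and 21 bases, start at different places. Aligned without gaps over 20 bases they are identical at 18 and differ by C7U and A13G, with positions counted from the 5′ end of miR-138-1-3p. They have different seeds, and none of the 3 seeds occurs in another of the 1679 mouse mature miRNAs of the RefSeq table. The base that follows miR-138-5p differs between the hairpins: it is U in Mir138-1 and A in Mir138-2. A read of miR-138-5p with 1 extra A at its 3′ end therefore matches Mir138-2 without any addition. Of 394 tested miRNAs whose next hairpin base could be read, 87 (22.1%) had A at 1 locus or more. Of the 29 among them with more than 1 locus, 3 had A at some loci and another base at others. The base after miR-138-1-3p is C and that after miR-138-2-3p is U.

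Libraries held 2197915 to 2762035 counts in GLD2KO and 2254812 to 3761106 in WT. All 3 strands of miR-138 passed the low-count filter, as did 521 miRNAs in all. Summed levels of 4 neuronal marker miRNAs ran from 133507 to 238754 counts scaled to a library of 1000000 (CPM) in GLD2KO and from 95308 to 339109 CPM in WT. No marker of the lists for neurons, oligodendrocytes, choroid plexus and cilia, red blood cells, or microglia and leukocytes was at 0 in any library. Summed choroid plexus and cilia markers reached 21160.1 CPM in GLD2KO replicate 6, where the other GLD2KO libraries had 1227 to 8362 CPM and WT libraries 1565 to 5289.95 CPM. Red blood cell markers spanned 1391 to 24386 CPM in GLD2KO and 741 to 23132 CPM in WT.

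miR-138-5p was abundant in hippocampi of both genotypes, and its level varied widely between libraries of the same genotype. Each mouse gave 1 library, so differences between mice and between library preparations cannot be told apart. Its lowest, median and highest levels were 5049, 14308 and 35613 CPM in GLD2KO and 2551, 16301 and 34338 CPM in WT. The groups overlapped over most of their range. The low end was formed by GLD2KO replicate 4 and, in WT, by replicates 2 and 3, and the high end by GLD2KO replicates 6 and 1 and WT replicate 4. The highest library stood 7.05-fold above the lowest within GLD2KO and 13.5-fold within WT. Counting error is small against this range: the lowest count, 8056 in WT replicate 2, has a 95% Poisson interval of 7881 to 8234. Such intervals cover counting error only. Because the tissue was processed whole, fewer cells containing a miRNA and less of it per cell cannot be told apart. By mean level miR-138-5p ranked 14 of 521, between miR-136-5p of the imprinted Dlk1-Dio3 locus at 21608 CPM and the neuronal miR-128-3p at 17011 CPM. Within either genotype the SD of each of these 3 was at least 6505 CPM, more than the gaps between their means. Within single libraries its rank by counts ran from 7 to 45. The neuronal marker sums of the low libraries lay inside the range of the other libraries. They were 187180 CPM in GLD2KO replicate 4, 175476 CPM in WT replicate 2 and 217223 CPM in WT replicate 3. That sum is mostly miR-124-3p and miR-9-5p, with means of 114659 and 57286 CPM. Its member miR-128-3p was at 1620 CPM in GLD2KO replicate 4 and 6380 CPM in WT replicate 2, the lowest of each group. In WT replicate 3 it was at 26735 CPM, the highest of WT. The cause of the low levels was not tested.

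The strands of the opposite arm were far rarer and about equal to each other. Over all libraries miR-138-1-3p averaged 190.4 CPM and miR-138-2-3p 190.2 CPM, against 18001 CPM for miR-138-5p. These levels are not divided by length, since a read spans the whole strand and the strands differ by at most 2 bases. The lowest, median and highest levels of miR-138-1-3p were 73.8, 162 and 268 CPM in GLD2KO and 166, 197 and 275 CPM in WT. For miR-138-2-3p they were 25.9, 137 and 310.0 CPM in GLD2KO and 158, 191 and 359.8 CPM in WT. The groups overlapped for both strands. For each strand, GLD2KO replicate 3 was the lowest of the 12 libraries. Its 97 counts of miR-138-2-3p have a 95% Poisson interval of 78.7 to 118, which scales to 21.0 to 31.5 CPM, and the next GLD2KO library stood at 109 CPM.

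**Figure D1:**
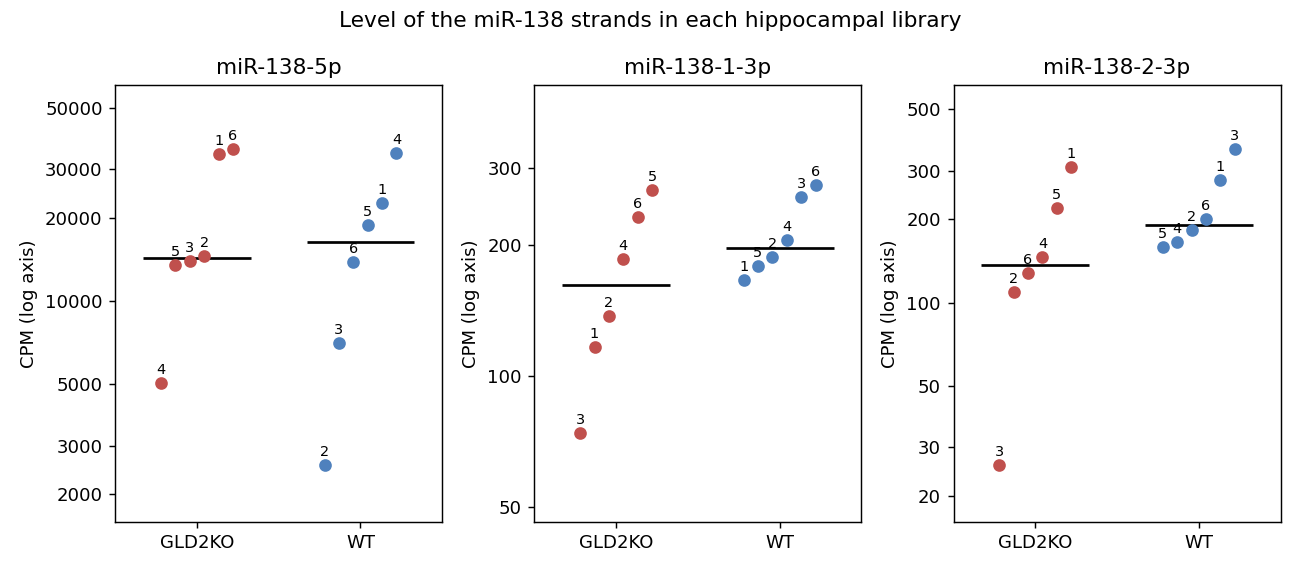
Level of each miR-138 strand in CPM, on log axes, in the 6 GLD2KO and 6 WT libraries. Points are libraries marked with their replicate numbers, and bars are medians. The genotypes overlap for all 3 strands, and miR-138-5p spans 2551 to 35613 CPM over the 12 libraries.

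None of the 3 strands passed the test of a genotype difference. miR-138-5p averaged 19459.8 ± 12405 CPM in GLD2KO and 16541 ± 11418 CPM in WT (SD, n = 6 each). Its log2 fold change, GLD2KO minus WT, was 0.23 (SE 0.55, 95% confidence interval -0.92 to 1.39, edgeR quasi-likelihood adjusted p = 0.978). On the linear scale that interval spans ratios of 0.529 to 2.62, so it includes a doubling in GLD2KO and stops just short of a halving. The value rested on single mice: it was 0.02 without GLD2KO replicate 6, which held the high choroid plexus marker sum, 0.03 without GLD2KO replicate 1, 0.05 without WT replicate 2 and 0.64 without WT replicate 4. The part of choroid plexus tissue in it was not tested.

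The 3p strands had log2 fold changes of the other sign. miR-138-1-3p averaged 169 ± 73.3 CPM in GLD2KO and 212 ± 44.5 CPM in WT, which gave a log2 difference of -0.33 (interval -1.11 to 0.45, SE 0.37; adjusted p from edgeR 0.978). miR-138-2-3p averaged 156 ± 97.7 CPM in GLD2KO and 224 ± 79.2 CPM in WT, which gave a log2 difference of -0.52 (interval -1.49 to 0.46, SE 0.47; adjusted p from edgeR 0.978). Both upper bounds lie under a doubling in GLD2KO. The lower bounds, at ratios of 0.463 for miR-138-1-3p and 0.355 for miR-138-2-3p, lie beyond a halving, so both intervals include one. For miR-138-1-3p the value was -0.19 without GLD2KO replicate 3 and -0.50 without GLD2KO replicate 5. For miR-138-2-3p it was -0.28 without WT replicate 3 and -0.87 without GLD2KO replicate 1. The background is the same: 0 of the 521 tested miRNAs passed (0%), and 25 (4.8%) had an unadjusted p under 0.05, none of them a miR-138 strand. DESeq2 called 0 miRNAs as well, with 38 at an unadjusted p under 0.05.

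The balance between the arms was therefore compared within each library, where it does not depend on how libraries are scaled. There were 15.2 to 141 reads of miR-138-5p for each read of the summed 3p strands in GLD2KO libraries (median 69.5), and 6.87 to 92.6 in WT libraries (median 40.1). The genotypes overlapped, with GLD2KO replicate 3 highest and WT replicate 2 lowest. The 5p strand made up 99.3% of all miR-138 counts in GLD2KO replicate 3 (95% Wilson interval 99.2 to 99.4%) and 87.3% in WT replicate 2 (86.6 to 88.0%). The 3 libraries with the lowest ratios, WT replicates 2 and 3 and GLD2KO replicate 4, were those with the lowest miR-138-5p. The highest ratio belonged to the library with the lowest 3p strands. The log2 ratio was 5.78 ± 1.21 in GLD2KO and 4.86 ± 1.45 in WT (SD, n = 6 each), a difference of 0.92 (95% confidence interval -0.55 to 2.39, limma adjusted p = 0.902). It was 0.50 without WT replicate 2. Of 186 miRNA names with enough counts in both arms 0 passed (0%), and 5 (2.69%) had an unadjusted p under 0.05. Over these names the median log2 ratio of 5p to 3p was 0.52, and miR-138 had the 39th highest, at a mean of 5.32.

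The 3p strands are the only counts that tell the hairpins apart. As a share of the summed 3p counts, miR-138-1-3p took 55.4 ± 15.6% in GLD2KO and 49.4 ± 8.07% in WT (SD, n = 6 each). It held the majority in 5 of 6 GLD2KO libraries and in 4 of 6 WT libraries. The extremes both fell among the GLD2KO mice: 27.3% in replicate 1 (95% Wilson interval 24.4 to 30.3%) and 74.1% in replicate 3 (69.4 to 78.2%). These intervals are far apart, so the libraries differed in the mix of 3p strands by more than counting error. Mouse and library preparation cannot be told apart here. The log2 ratio of miR-138-1-3p to miR-138-2-3p averaged 0.32 ± 0.970 in GLD2KO and -0.04 ± 0.472 in WT, a difference of 0.36 (two-sided exact permutation p = 0.439 over all relabellings). This value depended on GLD2KO replicates 1 and 3. Without replicate 1 the difference was 0.70 (exact permutation p = 0.0433, unadjusted), and without replicate 3 it was 0.12 (exact permutation p = 0.801).

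**Figure D2:**
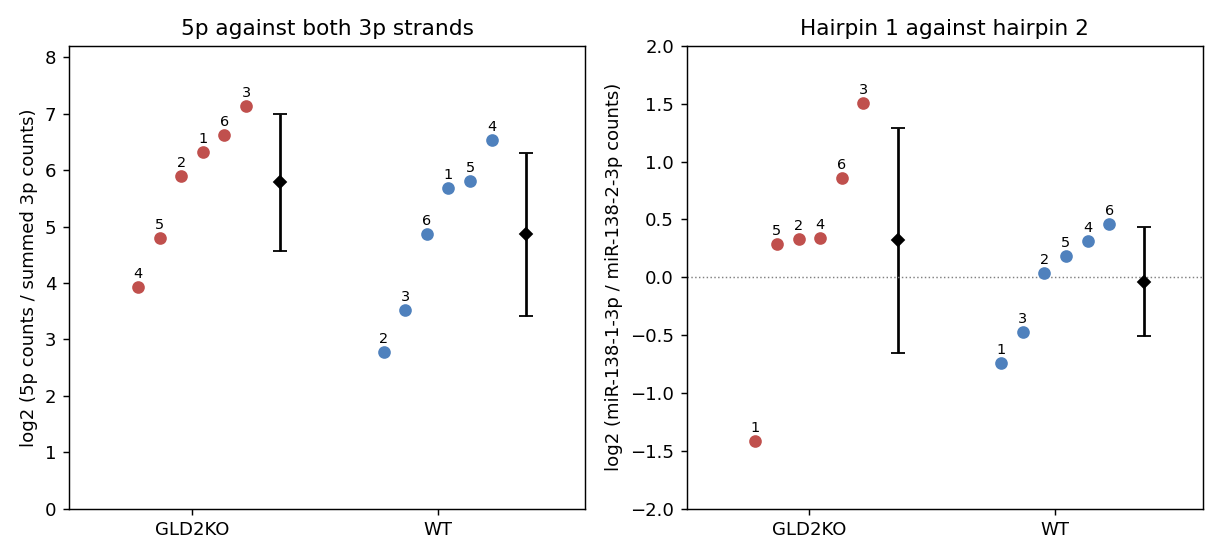
Ratios of miR-138 strands within each library, as log2 of 5p counts over summed 3p counts (left) and of miR-138-1-3p over miR-138-2-3p counts (right). Points are libraries marked with their replicate numbers, diamonds and bars are means and SD (n = 6 each). The genotypes overlap in both panels, and the hairpin ratio runs from -1.41 to 1.51 within GLD2KO alone.

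No relation between miR-138-5p and either 3p strand was detected from library to library. Over the 12 libraries its log2 CPM had a Pearson r of -0.13 (permutation p = 0.703, adjusted p = 0.944) and a Spearman rho of -0.24 (permutation p = 0.440, adjusted p = 0.659) with miR-138-1-3p. With miR-138-2-3p, r was -0.01 (permutation p = 0.944, adjusted p = 0.944) and rho -0.13 (permutation p = 0.699, adjusted p = 0.699). Within the genotypes r lay between -0.19 and 0.21 for these pairs. The 3p strands had an r of 0.65 with each other (permutation p = 0.0703, adjusted p = 0.211 over the 3 relations) and a rho of 0.35 (permutation p = 0.266, adjusted p = 0.659). That r was 0.62 within GLD2KO and 0.30 within WT, and 0.47 without GLD2KO replicates 3 and 1, the farthest from the median of miR-138-1-3p. With library totals in place of TMM factors it was 0.47 over the 12 libraries. On that scale miR-138-5p had an r of -0.05 with miR-138-1-3p and -0.12 with miR-138-2-3p. Without WT replicate 2 and GLD2KO replicate 4, the farthest from the median of miR-138-5p, the values with miR-138-5p were -0.16 and 0.01.

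The SD of the log2 CPM of miR-138-5p within a genotype was 1.21, which ranked 15 of 81 once miRNAs averaging under 1000 CPM were set aside. The median SD of those 81 was 0.82, and that of miR-128-3p, next in abundance, was 1.20. Against the 103 miRNAs at 100 to 500 CPM, with a median SD of 0.81, miR-138-1-3p varied little, at 0.53 (rank 88), and miR-138-2-3p stood at 0.93 (rank 39). The arm ratio had an SD of 1.33 within a genotype, rank 70 of 186 names with a median of 1.19. These ranks describe the libraries and were not tested.

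**Figure D3:**
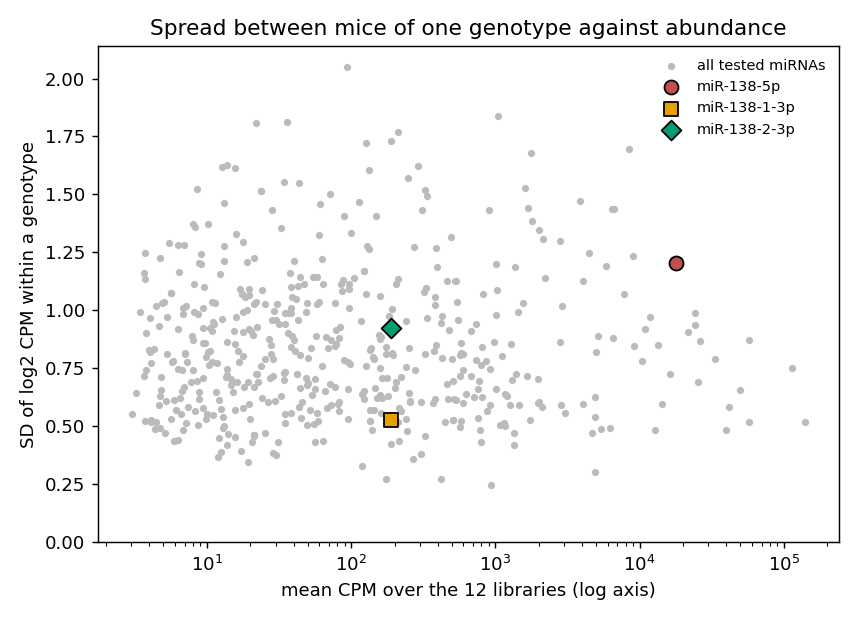
SD of log2 CPM within a genotype (pooled over both genotypes) against mean CPM on a log axis, 1 point for each of the 521 tested miRNAs. miR-138-5p, at 1.21, lies above the median of 0.82 of abundant miRNAs, and miR-138-1-3p, at 0.53, lies low for its level.

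The miRNA whose level moved most like miR-138-5p was miR-149-5p. Likeness was measured as the Pearson r of log2 CPM over 12 libraries after subtracting each genotype mean, among 224 miRNAs that averaged 100 CPM or more, whose median r was 0.01. The libraries share depth and scaling across all miRNAs, and the values are given as a description. miR-149-5p had its lowest, median and highest levels at 288, 748 and 1416 CPM in GLD2KO and 114, 404 and 517 CPM in WT. Its r was 0.90 (rho 0.78), at 0.95 within GLD2KO and 0.87 within WT, and 0.70 without WT replicate 2 and GLD2KO replicate 4. Like miR-138-5p it was lowest in those libraries within their groups. Its difference between genotypes was 1.16 on the log2 scale (edgeR adjusted p = 0.815, SE 0.44).

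Next came the neuronal miR-128-3p with an r of 0.70, which dropped to 0.23 without the same libraries. The value for miR-674-5p was 0.70 (0.47 without them) and for miR-29a-5p, the rarer strand of a hairpin whose 3p strand is abundant in neurons, 0.69 (0.78 without them). The red blood cell miR-144-3p had an r of 0.64 (0.55 without them). The summed red blood cell markers had no such pattern in WT replicate 2, where they were the highest of WT at 23132 CPM. In GLD2KO replicate 4 they were the lowest of GLD2KO at 1391 CPM. In WT replicate 3, where miR-138-5p was also low, they were the lowest of WT at 741 CPM. Where miR-138-5p was high, they were at 4364 CPM in WT replicate 4, 3709 CPM in GLD2KO replicate 1 and 12608 CPM in GLD2KO replicate 6. A relation of miR-138-5p to blood content was not tested. The lowest r belonged to miR-7a-5p, for which the circular RNA Cdr1as carries many binding sites, at -0.63. It was -0.82 without WT replicate 2 and GLD2KO replicate 4, -0.98 within GLD2KO and -0.40 within WT. Next lowest was miR-497-5p at -0.59 (-0.85 without those libraries), with -0.40 within GLD2KO and -0.72 within WT. With library totals in place of TMM factors r was 0.89 for miR-149-5p, still the highest, -0.57 for miR-7a-5p and -0.31 for miR-497-5p. These then ranked 220 and 192 of 224 from the top, so other miRNAs held the lowest values on that scale. The level of miR-7a-5p was 977 to 2588 CPM in GLD2KO, lowest in replicates 6 and 1, and 1809.7 to 5688 CPM in WT.

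The mature sequences of the closest of these and of miR-7a-5p, from RefSeq, are shown with the seed in capitals so that they can be set beside that of miR-138-5p.
miR-149-5p: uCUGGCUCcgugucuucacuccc
miR-128-3p: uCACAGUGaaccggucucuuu
miR-7a-5p: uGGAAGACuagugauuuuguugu
Their seeds differ from each other and from that of miR-138-5p. Their content of G and C is 60.9% for miR-149-5p, 47.6% for miR-128-3p and 34.8% for miR-7a-5p, against 56.5% for miR-138-5p. The median is 47.6% over 432 tested miRNAs with a sequence. Among the others named for a high r it is 54.5% for miR-674-5p, 36.4% for miR-29a-5p and 30.0% for miR-144-3p. A relation between this content and likeness was not tested.

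**Figure D4:**
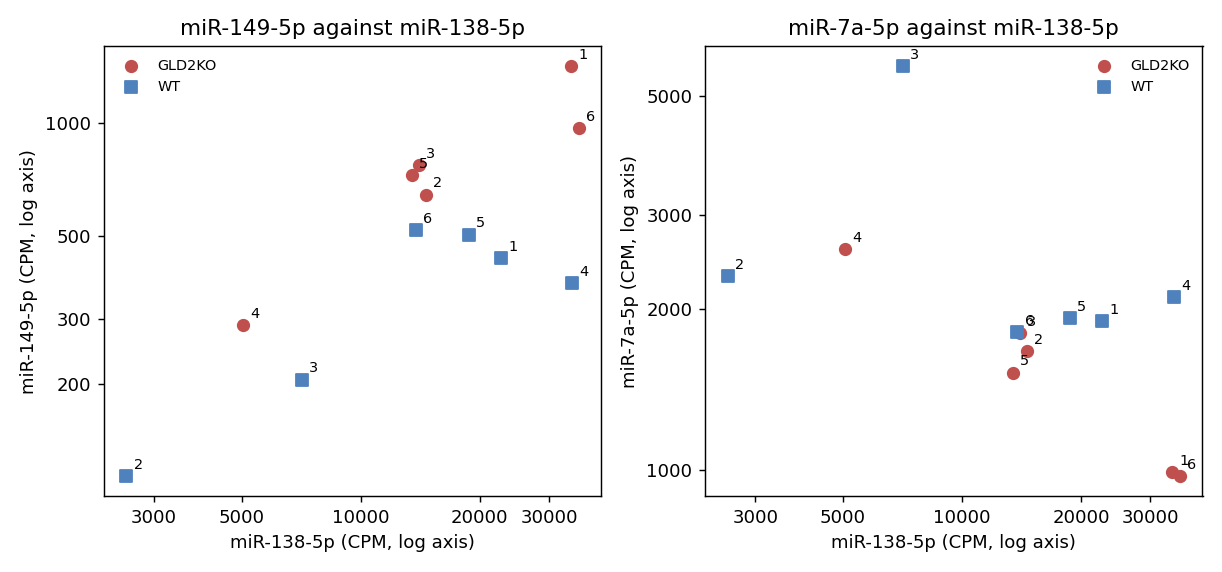
Levels of miR-149-5p (left) and miR-7a-5p (right) against miR-138-5p in CPM on log axes, 1 point per library with its replicate number, GLD2KO as circles and WT as squares. miR-149-5p is low where miR-138-5p is low (r = 0.90 within genotypes). Of the GLD2KO libraries, miR-7a-5p is lowest in 1 and 6, where miR-138-5p is high (r = -0.98 within GLD2KO and -0.40 within WT).

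Among 20 other miRNAs described in dendritic spines, synapses or their regulation, 9 had a log2 fold change above 0 and 11 below it, and 0 passed the test. Their median log2 fold change was -0.02, with a sign that turned under 7 of 20 alternatives, beside 0.12 over all 521 tested miRNAs, of which 306 (58.7%) lay above 0. The most abundant was the neuronal miR-124-3p, with a mean of 98413 ± 21711 CPM in GLD2KO and 130905 ± 76640 CPM in WT (log2 fold change -0.41, SE 0.42). That value was -0.09 without WT replicate 1, -0.19 with library totals in place of TMM factors and -0.18 in limma-voom. The neural miR-9-5p had a log2 fold change of 0.26 (SE 0.46), which was 0.03 without GLD2KO replicate 4 and turned to -0.06 without GLD2KO replicate 1. For miR-29b-3p, whose family increases during neuronal maturation, it was -0.51 (SE 0.37). The lowest unadjusted p in the list belonged to miR-22-3p, at 2.08 on the log2 scale (edgeR adjusted p = 0.815, SE 0.73), which was 0.81 without GLD2KO replicate 1 and 1.09 in limma-voom. Next was miR-146a-5p, a miRNA of the inflammatory response, at -0.67 (edgeR adjusted p = 0.841, SE 0.37). The interval of miR-138-5p was wider than those of the list other than miR-22-3p and miR-384-5p, and 19 of the 20 intervals included 0, as did its own.

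**Figure D5:**
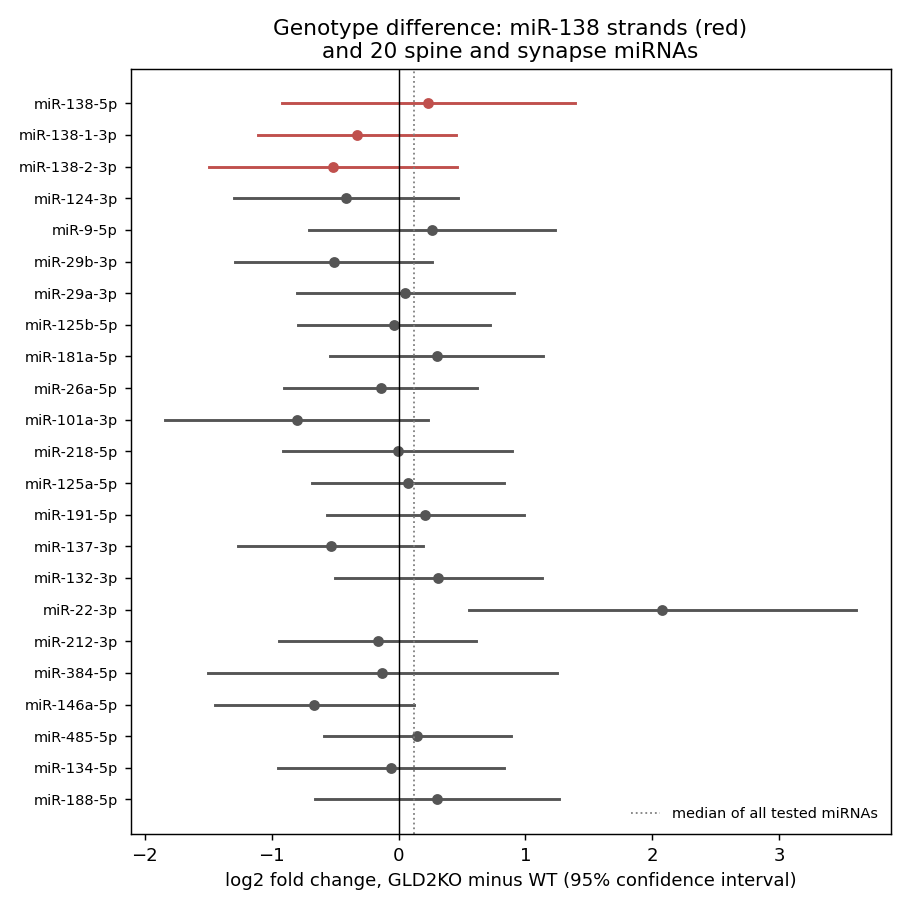
Log2 fold change, GLD2KO minus WT, with its 95% confidence interval from edgeR for the miR-138 strands (red) and 20 spine and synapse miRNAs in order of abundance. The intervals of all 3 miR-138 strands include 0, and that of miR-22-3p lies above 0.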

How the data were processed

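Small RNA libraries were made from gel-cut hippocampal RNA extracted with TRIzol and sequenced on an Illumina HiSeq 2500, per the labels' protocols. The sample labels give a size fraction of 28 to 32 bases and the series' design text 18 to 32; the miR-138 strands, of 21 to 23 bases, lie only within the range of the design text. Trimmomatic 0.32, cutadapt 1.3 and GRCm38 are named in the submitters' processing notes; an aligner, a counter and a rule for shared reads are not given in the sources. The authors deposited whole-number counts per mature miRNA, without normalization. A row naming no miRNA held 0 counts and was left out.

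The tests of counts used edgeR 4.0.16 under R 4.3.3 (filterByExpr, TMM, glmQLFit, glmQLFTest) over all miRNAs, with Benjamini-Hochberg adjustment and a threshold of 0.05. The SE is the absolute log2 fold change over the square root of the F statistic. Log2 CPM used a prior count of 2. Arm ratios (pseudocount 0.5, both arms averaging 10 counts or more, 3p strands of a name summed) were tested with limma 3.58.1, single ratios by exact permutation, and correlations by 100000 permutations. Sequences came from RefSeq on GRCm38.p6, in which 1603 of 1908 names matched, and loci from an annotation of GRCm38. Tests were checked on simulated data.

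The strands and lists were chosen with earlier results of these data known. Named miRNAs are the 3 strands, the 5 most and 2 least like miR-138-5p, its neighbours in abundance, and the 3 most abundant and 2 lowest-p members of the spine and synapse list. Per the labels each library is a separate mouse; no batch is given. Alternatives were DESeq2 1.42.0, limma-voom, other scalings and filters, a robust fit, other pseudocounts and count minimums, a block by replicate number, and each library left out in turn.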

Additional observations from a re-analysis of the deposited data

How the results depend on the processing

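Of 234 recomputed differences, 231 kept their direction and their side of the threshold. The count of miRNAs past the threshold was 7 with no low-count filter, none of them a miR-138 strand, and 0 under every other alternative. Leaving out each library in turn gave log2 fold changes of 0.02 to 0.64 for miR-138-5p, -0.50 to -0.19 for miR-138-1-3p and -0.87 to -0.28 for miR-138-2-3p, arm ratio differences of 0.50 to 1.29 and hairpin ratio differences of 0.12 to 0.70, of which that without GLD2KO replicate 1 passed an unadjusted threshold. For miR-9-5p they ran from -0.059, without GLD2KO replicate 1, to 0.43, so its sign turned, and miR-22-3p passed with no low-count filter (edgeR adjusted p = 0.00482); the cause was not tested. The median of the spine and synapse list lay between -0.13 and 0.09 when libraries were left out and was 0.06 with library totals; over all 20 alternatives it was above 0 in 7. Same-numbered mice did not deviate together (r of -0.23 to 0.24 across miRNAs, and 2 of 12 libraries correlated best with their own number). With the replicate block the values were 0.47 for miR-138-5p, -0.42 for miR-138-1-3p, -0.66 for miR-138-2-3p, 0.92 for the arm ratio and 0.36 for the hairpin ratio (exact sign-flip permutation p = 0.406), with 0 miRNAs past the threshold and a list median of -0.04. The lowest count of any miR-138 strand was 97.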
